A study of Mus musculus with 6 samples.

Results

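Fatty acid oxidation is described here through 33 genes, namely the regulator Ppara, the fuel switch kinase Pdk4, the enzymes that activate fatty acids, the carnitine shuttle, and the enzymes of the oxidation spiral in mitochondria and in peroxisomes. A gene was measured if a probe set carried its symbol and no other, and the brightest probe set stood for it. This held for 30 of the 33 genes among 19938 genes measured in all. Acsl1, Acsl3 and Cpt1b had no probe set of their own and are not analysed here. The remaining genes comprised 18 mitochondrial steps, 7 peroxisomal steps and 5 genes assigned to neither (Ppara, Pdk4, Acsl4, Acsl5 and Cpt1c).

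RNA of AML-12 cells was hybridised to Affymetrix mouse gene arrays, 1 array per sample. AML-12 is a hepatocyte line from a mouse that carried a transforming growth factor alpha transgene, and both groups were made from it. The knockdown group (siMnSOD) had 3 samples with a retroviral hairpin against MnSOD, the mitochondrial superoxide dismutase encoded by Sod2, and the control group (siScramble) had 3 samples with a scrambled hairpin. Cells of both groups were selected with puromycin, grown in serum-containing medium without further treatment and taken from different frozen batches. The hairpin was designed for mild silencing, although the series title speaks of knockout cells, and the labels do not say how many transductions the samples represent. The labels call the samples of each group biological replicates. With the transductions not counted, the p-values below measure the spread between these samples, which may be technical.

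Long-chain fatty acids are first joined to coenzyme A by acyl-CoA synthetases. Carnitine palmitoyltransferases and a carrier then bring them into the mitochondrial matrix, where each turn of the spiral shortens the chain through a dehydrogenase, a hydratase, a second dehydrogenase and a thiolase. Peroxisomes run a similar spiral on very long and branched chains and on bile acid precursors, and begin it with oxidases that make hydrogen peroxide. In liver, PPARA switches on genes of both spirals during fasting.

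Deposited intensities were analysed on the log2 scale, on which a difference of 1 is a doubling of the signal. Background was judged by 1027 olfactory receptor genes, 95% of which had mean levels under 4.28. On arrays 1, 2 and 3 of each group Sod2 read 6.63, 6.92 and 5.71 with the MnSOD hairpin and 7.95, 7.99 and 8.20 with the scrambled one, a log2 fold change of −1.63 (SE 0.30, adjusted p = 0.037 in limma). Every knockdown array lay below every control, and the call was lost in 6 of 15 alternatives: with centred arrays (0.074), with all probe sets (0.063), and when replicate 1 or 2 was dropped from the knockdown (0.10 and 0.072) or from the control (0.12 and 0.13). Replicates 1 and 2 resembled each other within each group (Pearson r across probe sets 0.992 in the knockdown and 0.993 in the control), and replicate 3 stood apart (r between 0.976 and 0.985 against its own group). Of 8 measured hepatocyte markers, Alb and Ttr lay under the background guide in both groups. Apoa1 (mean 4.73 in both groups) and Fgb (4.45 in the knockdown and 4.42 in the control) lay just above the guide, whereas Trf, Hnf4a, Krt8 and Krt18 were well above it. Among these markers Hnf4a rose by 1.09 (adjusted p = 0.013 in limma), and Krt8 (0.59) passed with the replicate block (adjusted p = 0.043). The biliary marker Sox9 fell by 0.86 (adjusted p = 0.027), whereas the biliary markers Krt7 (1.15) and Krt19 (0.70) went the other way. For Krt7 and Krt19 every knockdown array lay above every control, but neither passed (adjusted p = 0.38 and 0.19 in limma). The part of these markers in the results below was not tested. Mean levels were under the guide in both groups for 4 of 5 endothelial, 4 of 5 adipocyte, 2 of 5 leukocyte and 2 of 5 neuronal markers, 2 of 6 muscle markers, 3 of 6 stellate cell markers and 1 of 4 biliary markers. Dividing-cell markers differed between the groups: the summed intensity of 5 genes (Mki67, Top2a, Cdk1, Mcm5 and Aurkb, none under the guide) ranged from 4790 to 5645 in the knockdown and from 449 to 2047 in the control, and their part in the results below was not tested.

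The promoters of Acsl4, the single gene called with all arrays, and of Cpt1a and Acadm are printed as examples of the upstream sequence of this pathway. Cpt1a is a shuttle gene and Acadm a spiral gene, each with a single half-site of the receptor motif but not the paired motif itself. The last 2 were picked after their values were seen. PPARA binds with RXR to a paired motif on either strand, AGGTCA, any 1 base and AGGTCA again, whose half-site AGGTCA was also searched alone. Windows of 300 bases, from 250 before to 50 after the annotated start, were taken from RefSeq on GRCm38.p6, and 29 of the 33 genes had 1 or more (not Acaa2, Hsd17b4, Decr1 and Cpt1b). Sequences are printed 5′ to 3′ on the strand of the gene, with the half-site in capitals on either strand (TGACCT is its reverse complement).
Acsl4 promoter, chrX:142390486-142390785, minus strand: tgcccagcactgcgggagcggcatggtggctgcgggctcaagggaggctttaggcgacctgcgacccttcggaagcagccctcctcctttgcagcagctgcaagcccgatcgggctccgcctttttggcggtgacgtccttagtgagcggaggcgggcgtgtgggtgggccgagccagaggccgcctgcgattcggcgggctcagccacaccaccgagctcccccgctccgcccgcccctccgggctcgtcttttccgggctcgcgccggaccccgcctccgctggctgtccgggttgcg
Cpt1a promoter, chr19:3323051-3323350, plus strand: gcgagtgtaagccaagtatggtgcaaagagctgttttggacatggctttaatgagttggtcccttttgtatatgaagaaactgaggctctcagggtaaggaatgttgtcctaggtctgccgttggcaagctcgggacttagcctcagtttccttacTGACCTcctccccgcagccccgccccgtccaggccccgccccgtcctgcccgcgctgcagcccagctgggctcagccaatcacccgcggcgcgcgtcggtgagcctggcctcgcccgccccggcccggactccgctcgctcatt
Acadm promoter, chr3:153944594-153944893, minus strand: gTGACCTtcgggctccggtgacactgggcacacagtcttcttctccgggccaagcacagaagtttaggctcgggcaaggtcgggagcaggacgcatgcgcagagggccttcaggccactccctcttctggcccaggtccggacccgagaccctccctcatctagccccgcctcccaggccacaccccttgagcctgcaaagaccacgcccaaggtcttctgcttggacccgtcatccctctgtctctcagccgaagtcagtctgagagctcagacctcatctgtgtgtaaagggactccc
The paired motif was in 0 of the 31 windows of these genes and in 0.0396% of 32851 windows of all genes. The single half-site was in 5 of the 31 windows (16.1%), those of Acadm, Acadvl, Cpt1a, Cpt1c and Echs1, against 16.3% of all windows. It began 94 bases before the start of Cpt1a and 249 bases before that of Acadm. The Acsl4 window held no half-site and was 71.7% G or C, against a median of 52.7% over all windows and 62.3% in each of the other windows shown. A motif match describes these letters only.

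With all 6 arrays, 1 of the 30 genes passed the threshold, and it was lower in the knockdown. It was Acsl4, so 3.33% of the genes were called, against 3.75% of all genes tested (1.58% lower and 2.17% higher), a share near the background. Acsl4 was also the single gene to pass when the replicate number was a block, against 7.14% of all genes (4.02% higher and 3.12% lower). Array weights gave 11 higher and 3 lower members (46.7%), against 23.4% of all genes (12.5% higher and 11% lower). No member passed when arrays were centred on their medians (2.45% of all genes) or all probe sets were tested (2.17%). When 1 array was left out, the share of all genes called was 0.843%, 0.386% and 2.8% without knockdown replicate 1, 2 and 3 and 0.918%, 0.757% and 11.2% without control replicate 1, 2 and 3. At an unadjusted p under 0.05 there were 8 of the 30 genes, against 16.7% of all. The log2 fold change was positive for 24 of the 30, with a median of 0.14, against a median of 0.01 over all genes, of which 52.3% were positive. The groups did not overlap for 8 genes (26.7%), with 7 higher and 1 lower, against 20.9% of all genes (11.1% higher and 9.73% lower).

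**Figure D1:**
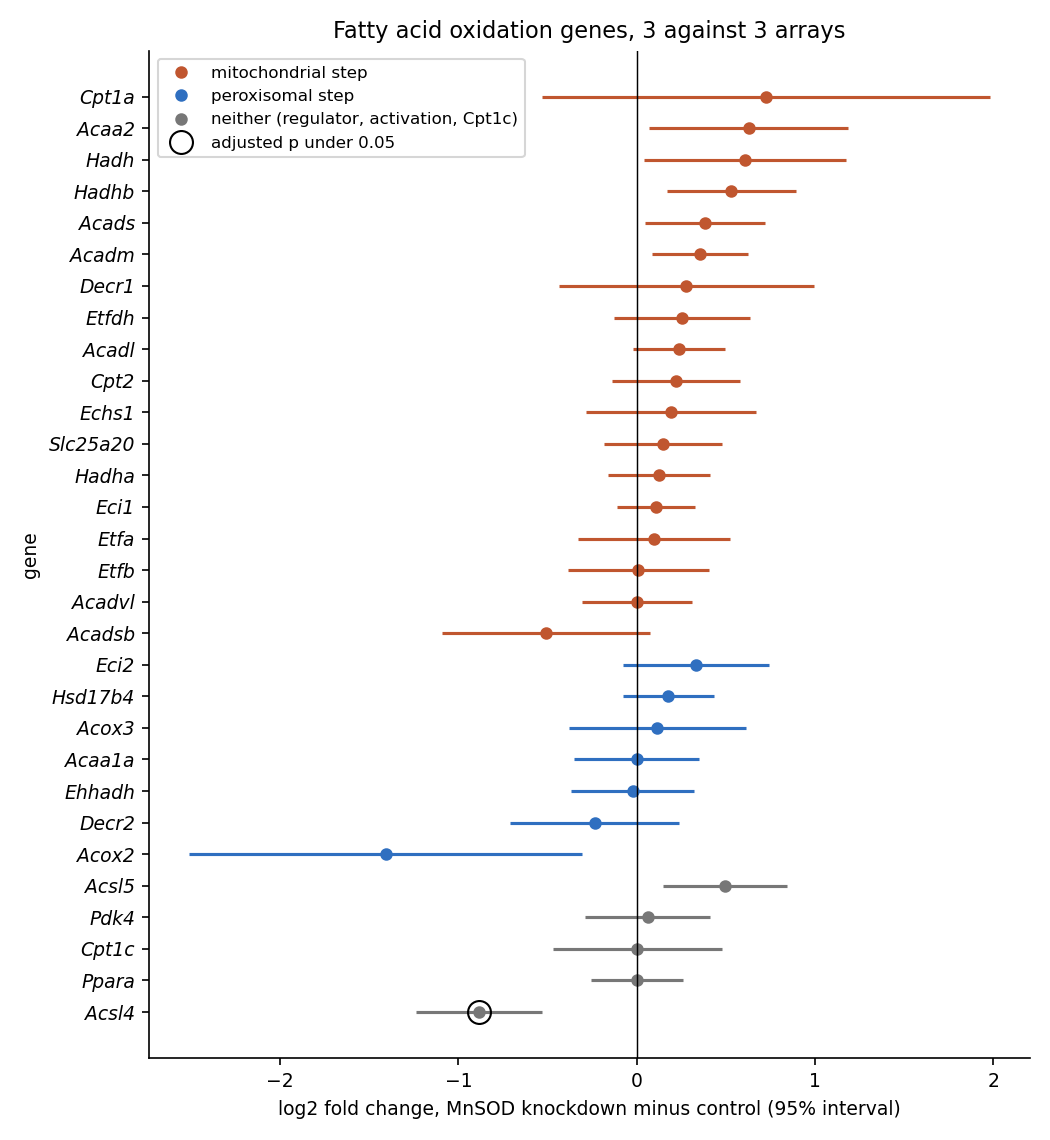
Log2 fold change of each measured gene on the x axis (knockdown minus control, 3 against 3 arrays), with its 95% interval from the fit, not adjusted for the number of genes; colours give the compartment and the ring marks an adjusted p under 0.05. Of the mitochondrial steps 17 of 18 lie right of zero, and Acsl4 at −0.89 carries the only ring.

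Activation of fatty acids was measured through a pair of acyl-CoA synthetases, and they differed in direction. Acsl4 (probe set 10607089), which prefers arachidonic acid and other polyunsaturated chains, read 9.86, 9.34 and 9.58 in the knockdown (here and below in the order of replicates 1, 2 and 3) and 10.46, 10.55 and 10.43 in the control. Every knockdown array lay below every control array. Acsl4 thus fell to 0.541 of the control level, with a log2 fold change of −0.89 (SE 0.15, adjusted p = 0.028 in limma, or 0.033 with the replicate block). The difference was −0.60, −1.21 and −0.85 within replicate numbers 1, 2 and 3. The call was lost without knockdown replicate 2 (adjusted p = 0.11 in limma), knockdown replicate 3 (0.068), control replicate 1 (0.11) or control replicate 2 (0.13). It was also lost when arrays were centred on their medians (0.053) or when all probe sets were tested (0.051).

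Acsl5, an intestinal and hepatic synthetase of the mitochondrial outer membrane and endoplasmic reticulum, read 11.36, 11.39 and 11.73 in the knockdown and 11.09, 11.10 and 10.81 in the control. All knockdown arrays lay above all controls. The log2 fold change of 0.49 (SE 0.15) did not pass (adjusted p = 0.14 in limma), and its 95% interval ran from 0.15 to 0.84.

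The regulators of the pathway lay at or under background. Ppara, the fatty acid sensing nuclear receptor, read 4.11, 4.24 and 4.19 in the knockdown and 4.14, 4.31 and 4.09 in the control, all within reach of the 4.28 guide. Its log2 fold change was 0.00069 (SE 0.11), and a change could not be seen at such a level. Pdk4, a kinase that shuts off pyruvate dehydrogenase when fat is burned and a known PPARA target, read 3.20, 3.32 and 3.37 in the knockdown and 3.06, 3.12 and 3.52 in the control. Its value of 0.06 (SE 0.15) likewise rests on signal under the guide.

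The carnitine shuttle held the member with the widest spread between control arrays. Cpt1a (probe set 10460157), the malonyl-CoA sensitive entry step of liver mitochondria, read 8.64, 8.68 and 8.51 in the knockdown and 7.28, 7.13 and 9.25 in the control. The knockdown arrays lay close together, whereas control replicate 3 was 2.04 above the mean of control replicates 1 and 2 and above every knockdown array. The log2 fold change of 0.72 (SE 0.53, adjusted p = 0.70 in limma) thus came from differences of 1.36 and 1.55 within replicate numbers 1 and 2 and of −0.74 within number 3. Without control replicate 3, Cpt1a had a log2 fold change of 1.40 and passed (adjusted p = 0.0017 in limma), while 11.2% of all genes passed in that fit, 5.61% in each direction. On that control array the dividing-cell markers also lay lowest, with a median deviation of −1.32 from their control means, against 0.66 and 0.65 on control replicates 1 and 2. The part of cell division in the Cpt1a difference was not tested.

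The later shuttle genes varied less. Cpt2, which returns the acyl chain to coenzyme A inside the matrix, read 7.26, 7.64 and 7.40 in the knockdown and 7.12, 7.08 and 7.44 in the control, and the groups overlapped (0.22, SE 0.15). Slc25a20, the carnitine-acylcarnitine carrier, read 7.56, 7.64 and 7.57 in the knockdown and 7.33, 7.28 and 7.72 in the control, again with control replicate 3 above the rest (0.15, SE 0.14). Cpt1c, a brain form with little transferase activity, read between 4.45 and 5.00 on all 6 arrays with a log2 fold change of 0.0029 (SE 0.20).

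The acyl-CoA dehydrogenases, which open each turn of the mitochondrial spiral and differ in chain length, included no called gene among 5. The medium-chain enzyme gene Acadm read 9.14, 9.07 and 8.86 in the knockdown and 8.64, 8.68 and 8.68 in the control. Acads, for short chains, read 8.67, 8.96 and 8.50 against 8.39, 8.23 and 8.36, and Acadl, for long chains, read 9.13, 9.28 and 9.31 against 8.94, 8.95 and 9.12. For these 3 of the 5 genes (60%) every knockdown array lay above every control array, as it did for 11.1% of all genes. Their log2 fold changes were 0.35 (SE 0.11), 0.38 (SE 0.14) and 0.24 (SE 0.11), with adjusted p-values of 0.16, 0.23 and 0.36 in limma.

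The remaining dehydrogenases did not share that pattern. Acadvl, the very long-chain enzyme gene, ranged from 7.91 to 8.26 in the knockdown and from 7.98 to 8.18 in the control, and its log2 fold change of 0.0023 had a 95% interval from −0.31 to 0.31. Acadsb, whose enzyme acts mainly on the branched product of isoleucine, read 7.40, 7.28 and 6.93 in the knockdown and 8.03, 7.92 and 7.18 in the control. It was the only one of the 18 mitochondrial genes with a negative log2 fold change (−0.51, SE 0.25, adjusted p = 0.40 in limma). Replicate 3 was the lowest array of both groups, and within each number the knockdown lay below its control (−0.63, −0.65 and −0.25). With the replicate block the adjusted p was 0.066.

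Genes for the later reactions of the spiral had the largest positive values of the mitochondrial set next to Cpt1a. Hadhb, the thiolase subunit of the trifunctional protein, read 8.63, 8.76 and 8.75 in the knockdown and 8.02, 8.03 and 8.49 in the control, and the groups did not overlap (0.53, SE 0.15, adjusted p = 0.13 in limma, or 0.067 with the block). Hadhb had 2 probe sets, and the dimmer one gave 0.49. Hadha, the hydratase and dehydrogenase subunit of the same protein, read 9.27, 9.45 and 9.48 against 9.23, 9.16 and 9.43, which overlapped, with a smaller value of 0.13 (SE 0.12).

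Hadh, the dehydrogenase for shorter hydroxyacyl chains, read 9.85, 10.06 and 9.13 in the knockdown and 9.18, 9.10 and 8.95 in the control. Replicate 3 was the lowest array in both groups and brought the groups into overlap (0.61, SE 0.24, adjusted p = 0.26 in limma), and without knockdown replicate 3 Hadh passed at 0.88 (adjusted p = 0.036), where 2.8% of all genes passed. Acaa2, the matrix thiolase that closes the turn, read 7.57, 7.76 and 7.28 against 6.77, 6.56 and 7.39. Here control replicate 3 lay above knockdown replicate 3, and the value of 0.63 (SE 0.23) had an adjusted p of 0.24 in limma. Echs1, the short-chain hydratase, ranged from 9.26 to 9.90 in the knockdown and from 9.18 to 9.62 in the control (0.19, SE 0.20).

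**Figure D2:**
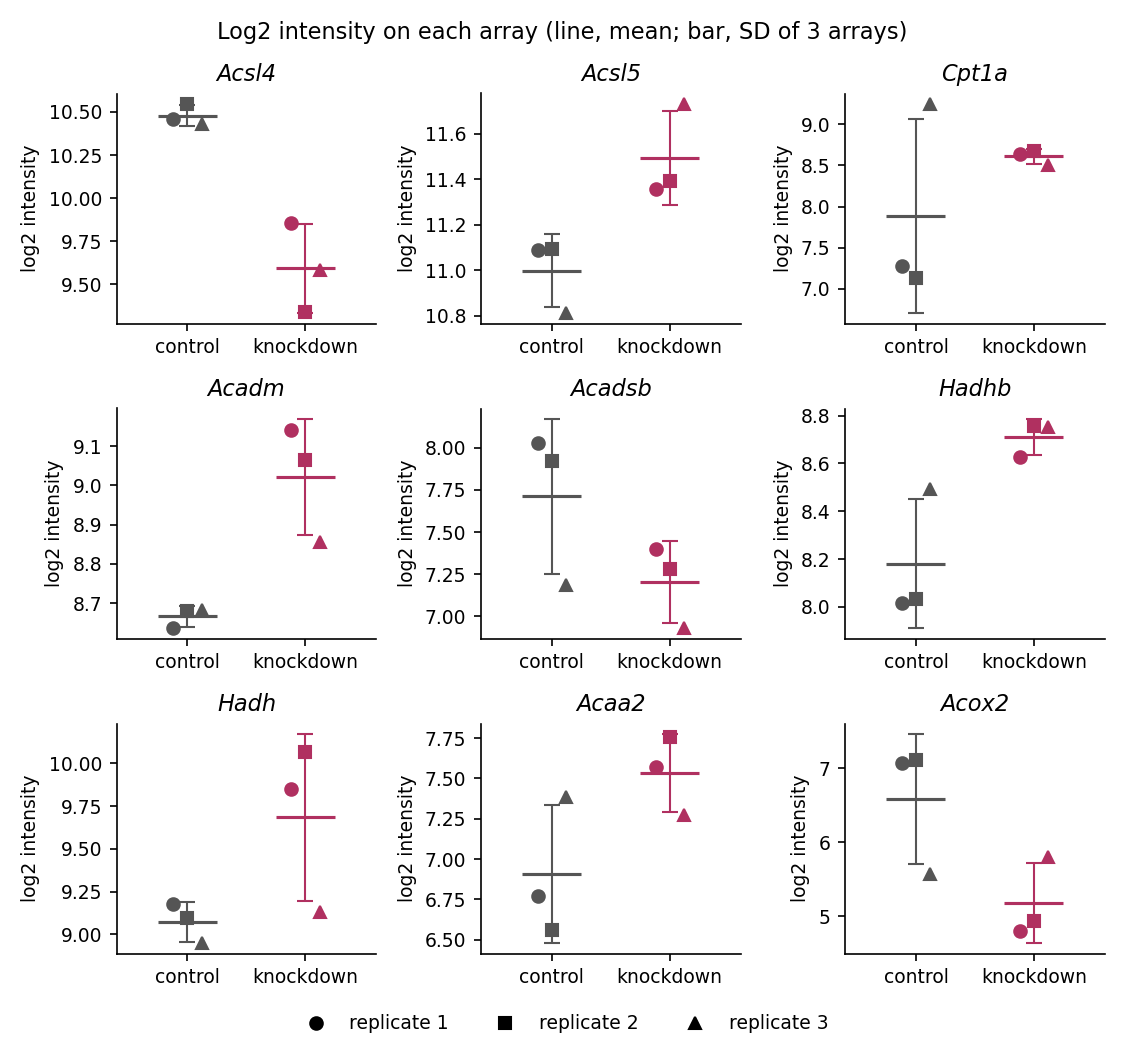
Log2 intensity (y axis) of 9 genes on each array, with the control and knockdown groups on the x axis; symbols mark the replicate, lines the mean and bars the SD of 3 arrays. The y axes are cut to each gene's range: Acsl4 separates the groups, whereas control replicate 3 lies at 9.25 for Cpt1a and at 5.57 for Acox2, away from control replicates 1 and 2.

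The mitochondrial auxiliary enzymes that handle double bonds included no called gene. Eci1, the mitochondrial enoyl-CoA isomerase, varied little: it read 7.93, 7.94 and 7.90 in the knockdown and 7.82, 7.83 and 7.79 in the control. The groups did not overlap, but the difference was only 0.11 (SE 0.09, adjusted p = 0.79 in limma). Decr1, the mitochondrial dienoyl-CoA reductase, read 8.40, 8.49 and 7.81 in the knockdown and 8.24, 8.29 and 7.34 in the control, with replicate 3 lowest in both groups (0.28, SE 0.30).

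Electrons from the dehydrogenases pass through electron transfer flavoprotein to the respiratory chain. Its subunit genes Etfa and Etfb had log2 fold changes of 0.10 (SE 0.18) and 0.0080 (SE 0.17), with ranges of 9.27 to 9.83 and 8.66 to 9.01 in the knockdown and of 9.33 to 9.66 and 8.56 to 9.02 in the control. Etfdh, which hands the electrons to ubiquinone, read 8.68, 8.67 and 8.76 in the knockdown and 8.24, 8.31 and 8.79 in the control (0.25, SE 0.16). Control replicate 3 again lay with the knockdown arrays.

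None of the 7 peroxisomal genes was called, and 3 had positive and 4 negative values, Acaa1a among the latter at only −0.00030. Acox2 (probe set 10417544), the oxidase for branched chains and bile acid precursors, read 4.80, 4.93 and 5.80 in the knockdown and 7.07, 7.12 and 5.57 in the control. Replicates 1 and 2 were far apart between the groups, and replicate 3 was not: the differences were −2.27, −2.19 and 0.23 within numbers 1, 2 and 3. Over all arrays the log2 fold change was −1.41 (SE 0.46, adjusted p = 0.18 in limma), and without control replicate 3 it was −1.91 and passed (adjusted p = 0.013). Acox3, the other branched-chain oxidase gene, ranged from 6.75 to 6.98 in the knockdown and from 6.50 to 7.23 in the control (0.12, SE 0.21).

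The bifunctional enzymes run the middle reactions in peroxisomes. Ehhadh, a classical PPARA target, read 3.91, 4.09 and 4.34 in the knockdown and 4.16, 3.99 and 4.27 in the control, so both means were under the background guide. Hsd17b4, the D-bifunctional enzyme, read 9.20, 9.34 and 9.22 against 8.98, 9.06 and 9.19. Its groups did not overlap, and the value of 0.18 (SE 0.11) had an adjusted p of 0.57 in limma.

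Acaa1a, a peroxisomal thiolase, ranged from 6.60 to 6.73 in the knockdown and from 6.51 to 6.97 in the control, with a 95% interval of the difference from −0.35 to 0.35. Decr2, the peroxisomal dienoyl-CoA reductase, read 7.74, 7.67 and 7.33 against 7.54, 7.72 and 8.19 and had −0.24 (SE 0.20). Eci2, an isomerase found in both organelles and counted here as peroxisomal, read 8.0, 8.25 and 7.68 against 7.79, 7.68 and 7.45 (0.33, SE 0.17, adjusted p = 0.45 in limma).

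Set side by side, the mitochondrial steps had 17 of 18 positive values and a median log2 fold change of 0.23, and the peroxisomal steps 3 of 7 and a median of −0.00030, which was 0.15 without control replicate 3. Counting Eci2 as mitochondrial gave medians of 0.24 over 19 genes and −0.01 over 6. None of these genes passed with all arrays (lowest adjusted p 0.13 and 0.18 in limma), and at an unadjusted p under 0.05 there were 5 of 18 mitochondrial genes and 1 of 7 peroxisomal genes, against 16.7% of all genes. The difference between the compartments was not tested, because the genes were chosen with results of these data known.

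Positive differences of the mitochondrial genes were larger within numbers 1 and 2 than within number 3. The median difference of the 18 genes was 0.19, 0.35 and 0.07 within numbers 1, 2 and 3, with 15, 16 and 10 positive values, and the median over all genes was 0.016, 0.0047 and 0.0067. For the 7 peroxisomal genes it was 0.21, 0.21 and 0.03, with 5, 5 and 4 positive values. The knockdown exceeded its control within all 3 numbers for 9 mitochondrial genes (Acadl, Acadm, Acads, Hadha, Hadhb, Hadh, Echs1, Eci1 and Decr1), 2 peroxisomal genes (Hsd17b4 and Eci2) and Acsl5. It lay below within all 3 numbers for Acadsb and Acsl4. This made 12 and 2 of the 30 genes, against 4505 and 3952 of all 19938.

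**Figure D3:**
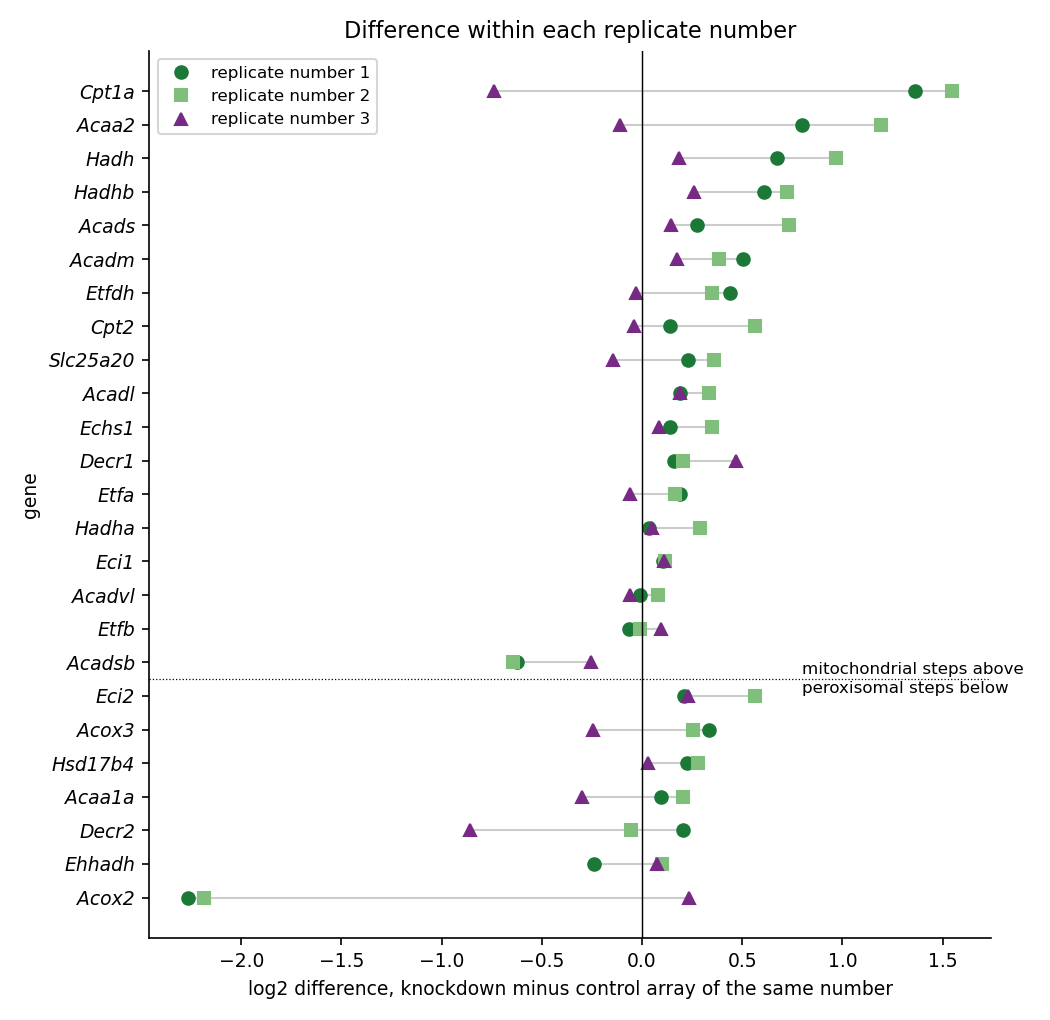
Log2 difference (x axis) between the knockdown and the control array of the same replicate number for the mitochondrial and peroxisomal genes (y axis), with 1 symbol per number. For Cpt1a (−0.74), Acaa2 (−0.11) and Acox2 (0.23), number 3 lies across zero from numbers 1 and 2. It also does so for Cpt2, Slc25a20, Etfa, Etfb, Etfdh, Acaa1a and Acox3. Number 3 lies farthest from zero for genes such as Decr2 (−0.86) and Decr1 (0.47), and numbers 1 and 2 lie apart for Cpt2 (0.14 and 0.56).

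When both replicate 3 arrays were left out, a comparison chosen after seeing the data, 9 of the 30 genes were higher and 3 lower, or 40%, against 21.4% of all genes (11.8% higher and 9.69% lower). Of the 18 mitochondrial genes 8 were higher and Acadsb lower. The shuttle genes Cpt1a (1.46, SE 0.08, adjusted p = 0.00075 in limma) and Slc25a20 (0.29, adjusted p = 0.047) were higher there. So were Acadm (0.45), Acads (0.50), Hadhb (0.67), Hadh (0.82), Acaa2 (1.00) and Etfdh (0.40), with adjusted p-values between 0.0038 and 0.043 in limma. Acox2 was the only peroxisomal gene called (−2.23, SE 0.08, adjusted p = 0.00048), Acsl5 was higher (0.28) and Acsl4 lower (−0.90). With 2 arrays a group that resemble each other this closely, the spread behind these p-values may be technical. Without control replicate 3 alone, 4 genes were higher (Cpt1a, Hadhb, Acaa2 and Etfdh) and 3 lower (Acsl4, Acadsb and Acox2), or 23.3%, against 11.2% of all genes. That array lay more than 0.5 from the mean of the other control arrays for 8 of the 30 genes (26.7%), against 24.1% of all genes.

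**Figure D4:**
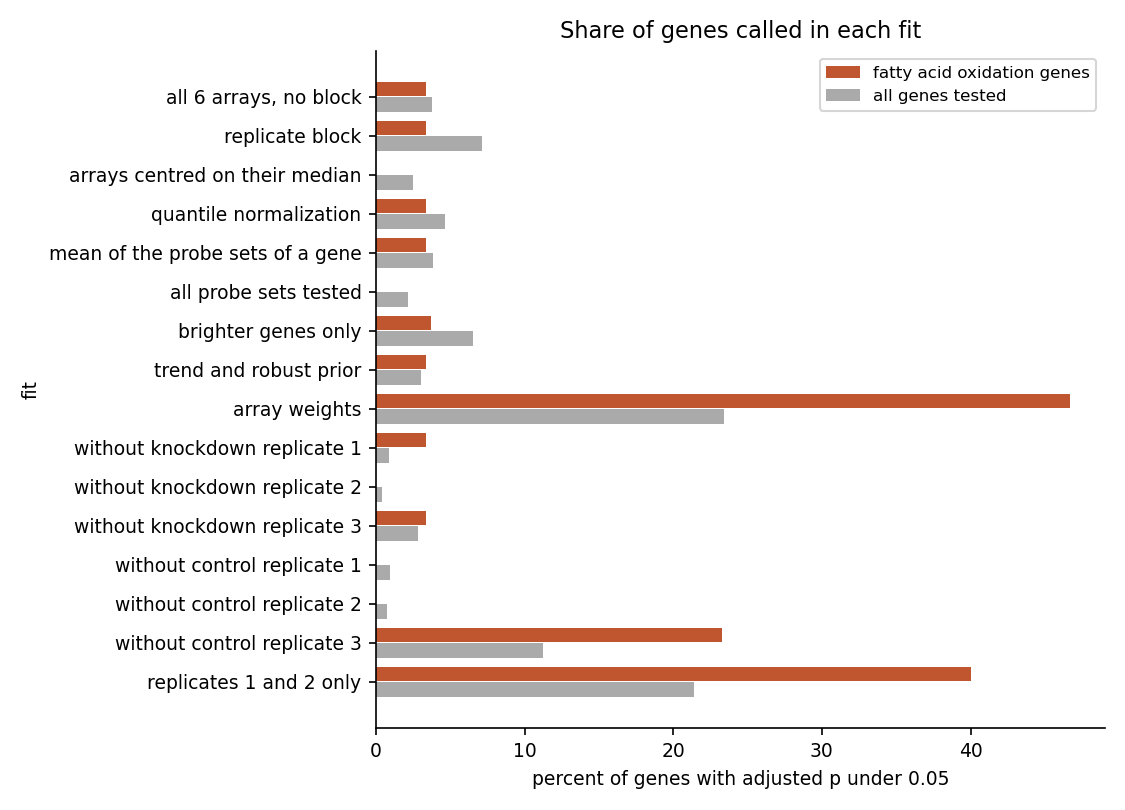
Percent of genes with an adjusted p under 0.05 (x axis) in each fit (y axis), for the fatty acid oxidation genes and for all genes tested. The shares are 3.33% and 3.75% with all 6 arrays and 40% and 21.4% with replicates 1 and 2 only.

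Around these genes, 116 of 126 further genes of the pathway were measured, in 9 lists. Of these, 3 fell and 0 rose (2.59%), against 3.75% of all genes. They were Acot2, a mitochondrial thioesterase that frees fatty acids from coenzyme A (−2.20, SE 0.12, adjusted p = 0.0010 in limma), Txnip, best known as a glucose-responsive gene (−2.79, SE 0.12, adjusted p = 0.0010), and Nrip1, a corepressor of nuclear receptors (−0.70, SE 0.13, adjusted p = 0.040, or 0.050 with the block). For Nrip1 the adjusted p was above 0.05 when any of the other 5 arrays than control replicate 3 was left out, reaching 0.19 without knockdown replicate 2, and also with centred arrays (0.087) or all probe sets (0.069). With the replicate block 6 were higher and 8 lower (12.1%), against 7.14% of all genes.

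Among 20 measured PPARA target genes outside the 30, Acot2 and Txnip fell and the others did not pass, 8 of them being under background in both groups. The share called was 10%, all lower, against 3.75% of all genes (1.58% lower). Plin2, a coat protein of lipid droplets, read 11.29, 11.25 and 10.95 in the knockdown and 12.02, 12.03 and 11.39 in the control. The groups did not overlap (−0.65, SE 0.20), and the adjusted p was 0.16 in limma and 0.034 with the block. Plin5, another droplet coat protein gene (−0.34), did not pass.

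Of 14 partners, relatives and coactivators of PPARA, 11 had negative values and 1, Nrip1, was called. Positive values made up 21.4%, against 52.3% of all genes, and 7.14% were called, against 3.75% of all genes. Ppargc1a, the coactivator PGC-1alpha, which drives oxidative genes, read 5.19, 4.99 and 5.52 in the knockdown and 5.66, 5.78 and 6.06 in the control. Every knockdown array lay below the controls (−0.60, SE 0.17). Its adjusted p was 0.13 in limma and 0.037 with the block. Ppard, a related receptor, had −0.42 (SE 0.12) and the phosphatidate phosphatase and coactivator gene Lpin1 0.34 (SE 0.16).

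Ketone body genes and other matrix enzymes of acyl-CoA had no call with all arrays. Oxct1, which activates ketone bodies for use, read 9.16, 9.18 and 8.72 in the knockdown and 8.28, 8.31 and 8.32 in the control, without overlap (0.71, SE 0.15, adjusted p = 0.052 in limma, or 0.043 with the block). Acat1, the acetoacetyl-CoA thiolase, read 9.01, 9.06 and 8.83 against 8.35, 8.36 and 7.80, also without overlap (0.80, SE 0.18, adjusted p = 0.062, or 0.025 with the block). Bdh2, a dehydrogenase first described for hydroxybutyrate, was at −1.11 (SE 0.32, adjusted p = 0.13 in limma, or 0.027 with the block). Bdh1, under background in both groups, was at −0.0082. Of 17 other mitochondrial acyl-CoA genes, 12 had positive values. Next to Acat1 the smallest p-values were those of Crat, which makes acetylcarnitine (0.42, SE 0.10, adjusted p = 0.074), Acad10 (−0.60, SE 0.22, adjusted p = 0.23, or 0.043 with the block) and Acad8 (0.24).

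Other peroxisomal genes gave no call with all arrays among 15 enzymes and importers and 13 peroxins, which build the organelle. Gnpat, which begins ether lipid synthesis, read 9.72, 9.85 and 9.72 in the knockdown and 9.32, 9.29 and 9.32 in the control, without overlap (0.46, SE 0.10, adjusted p = 0.055 in limma, or 0.045 with the block). Hacl1, a lyase of phytanic acid breakdown (0.51), catalase gene Cat (0.28) and the enoyl-CoA reductase gene Pecr (−0.25) did not pass. The peroxins had a median of 0.12, and Pex10 (0.50) passed with the block (adjusted p = 0.046 in limma). Pex5 (0.18), Pex16 (0.17) and Pex3 (−0.13) did not pass.

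The genes that gate the pathway gave no call with all arrays either. Of 10 genes for malonyl-CoA and AMP-activated kinase, the smallest p-values were those of the kinase subunits Prkag2 (0.45, SE 0.11), Prkab2 (−0.47, SE 0.12) and Prkag1 (0.50, SE 0.14) and of the upstream kinase gene Stk11 (0.44, SE 0.14), with adjusted p-values between 0.089 and 0.15 in limma. Among 15 genes of fatty acid and carnitine uptake, 9 lay under background in both groups. Slc27a4, a fatty acid transporter (0.42), and Aldh9a1, of carnitine synthesis (0.43), did not pass. Nor did Fabp1, the liver fatty acid binding protein (−0.21), which lay under background in both groups. The fatty acid binding protein gene Fabp5 had 1.65 (SE 0.59, adjusted p = 0.22 in limma, or 0.016 with the block). Of 10 genes of pyruvate dehydrogenase and its switch, Pdk3 (0.54) and Dld (−0.70) passed with the block (adjusted p = 0.043 and 0.019 in limma), while Pdp2 (0.72) and Pdhx (0.22) did not.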

How the data were processed

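Normalized intensities, 1 per probe set and array on a linear scale, were deposited for 35557 probe sets. RMA is listed in the submitters' processing notes and MAS5 in the labels' design text. Which of them made the values, and with what version, is not given in the sources used here. Because 100% of values matched antilogs of log2 numbers of 7 digits (tolerance 0.02 of the final digit), log2 needed no pseudocount. An annotation table gave 21789 probe sets exactly 1 symbol, updated by Entrez ID for 21698 (RefSeq, GRCm38.p6). Probe sets with several symbols were tested and not named, making 21559 tested rows.

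Group was the only term in limma 3.58.1 (R 4.3.3, lmFit and eBayes), with Benjamini-Hochberg adjustment over all rows and calls at 0.05. Fold changes subtract control from knockdown. No filter on low values was used, and 3 arrays a group limit the precision. The code was tested on simulated data. The labels give both groups replicate numbers 1 to 3. After group means were removed, samples sharing a number had r of 0.298, 0.286 and 0.559, each above 0.1. They were treated as pairs in the blocked fit and not in the main one. Knockdown replicate 1 correlated more with control replicate 2 (0.465) and knockdown replicate 2 with control replicate 1 (0.407), so pairing by number within replicates 1 and 2 is uncertain. The blocked fit served as an alternative and is printed beside results whose call it changes and for Acsl4, Nrip1, Hadhb and Acadsb.

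All members are named, with every array's value for called genes, the 12 of smallest p and key steps. At most 4 genes of each further list are named, called genes first and then by smallest p. Members and lists were chosen with earlier results of these data known.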

Additional observations from a re-analysis of the deposited data

How the results depend on the processing

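The count of called members, like that of all genes, rose when control replicate 3 was left out, alone or with knockdown replicate 3, or given a low weight. Without knockdown replicate 3 alone, 1 member was higher and 0 lower, where 2.8% of all genes passed. The members lower and higher numbered 3 and 11 with array weights and 3 and 9 with replicates 1 and 2 only (chosen after seeing the data), against 1 and 0 in the main comparison. The share of all genes called was 23.4% and 21.4% in these fits, against 3.75% in the main comparison. The number lower was 0 when arrays were centred on their medians or all probe sets were tested. Leaving out 1 array at a time gave 0 to 3 lower and 0 to 4 higher, where 0.386% to 11.2% of all genes passed. The median of all members was 0.21 with replicates 1 and 2 only and 0.11 to 0.20 with 1 array left out. Called mitochondrial and peroxisomal genes numbered 10 and 2 with array weights, 9 and 1 with replicates 1 and 2 only, and 0 to 5 and 0 to 1 with 1 array left out. The mitochondrial median ranged from 0.14 to 0.29 with 1 array left out. The peroxisomal median was 0.12 with array weights, 0.15 with replicates 1 and 2 only, and −0.071 to 0.15 with 1 array left out.

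Other genes of the pathway were higher and lower in 6 and 8 cases with the replicate block, 24 and 20 with array weights and 22 and 18 with replicates 1 and 2 only. These were 12.1%, 37.9% and 34.5% of the 116, against 7.14%, 23.4% and 21.4% of all genes. The other genes were higher in 2 cases with quantile normalization and in 1 with brighter genes only, where 4.65% and 6.55% of all genes tested passed. With 1 array left out 0 to 9 were higher and 2 to 9 lower, where 0.386% to 11.2% of all genes passed. The replicate block changed no call among the members, and left their count at 1 lower.

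Uncalled values near zero changed sign. With array weights and with replicates 1 and 2 only, Ppara was −0.062 and −0.048, Acaa1a 0.12 and 0.15, Etfb −0.055 and −0.036, and Decr2 0.045 and 0.075. Acaa1a was 0.018 with centred arrays and Cpt1c −0.0026 with replicates 1 and 2 only. With 1 array left out, Ppara ranged from −0.043 to 0.067, Cpt1c from −0.16 to 0.16, Acadvl from −0.071 to 0.10, Acaa1a from −0.079 to 0.15, Acox3 from −0.012 to 0.35, Ehhadh from −0.14 to 0.078, Etfa from −0.0054 to 0.27, Etfb from −0.14 to 0.11, Decr1 from −0.031 to 0.49 and Pdk4 from −0.025 to 0.21. The cause of these changes was not tested. Ppara, Pdk4 and Ehhadh, under background in both groups, drop out with brighter genes only.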
